A study of Mus musculus with 8 samples.

Results

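The genes described are 10 collagen and stromal matrix genes, Col1a1, Col1a2, Col3a1, Col4a1, Col4a2, Dcn, Lum, Fn1, Sparc, and Postn, out of 21828 genes measured in the developing mouse retina. They were chosen by symbol, and each has 1 row with a complete estimate in every table. No rule on measured values made the choice, but earlier results of these data were known when it was made. The samples came from mice of the slc:ICR strain: whole retinas at embryonic day 15 (E15) and embryonic day 18 (E18), and 2 cell fractions sorted by flow cytometry from retinas at postnatal days 2, 5, and 8 (P2, P5, and P8). Cells bearing the surface protein Cd73, a marker of rod photoreceptors and their precursors, made up the Cd73PC fraction, and the remaining cells of the same pooled retinas made up the Cd73NC fraction. The unsorted embryonic samples hold all retinal cells, and the sort treats vessel cells, astrocytes, and any cells carried over from neighbouring eye tissues like retinal neurons, since it reads only Cd73 and the dye that marks dead cells. Each of the 8 conditions has 1 library, so no difference below has a replicate error and none was tested.

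Collagens are secreted proteins of 3 chains wound around each other, which requires a glycine at a fixed interval along each chain. Types I and III form the fibrils of connective tissue, and type IV forms the network of basement membranes, which in the retina lie at the inner limiting membrane and around blood vessels. Fibronectin (Fn1) is an adhesive glycoprotein that astrocytes and vessel cells lay down in the young retina. Sparc and periostin (Postn) are matricellular proteins that bind collagens, and decorin (Dcn) and lumican (Lum) are small leucine-rich proteoglycans that coat collagen fibrils. The neural retina contains no fibroblast layer of its own.

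The coding sequences show the division between the fibrillar and the network-forming collagens. In the GENCODE transcripts of NCBIM37, the longest unbroken run with a glycine codon (GGN) opening each group of 3 codons was 338 groups in Col1a1, 339 in Col1a2, and 344 in Col3a1. It was 40 groups in Col4a1 and 66 in Col4a2, which instead had 22 and 24 separate runs of 5 or more groups. Each line below gives 90 coding bases with every GGN codon in capitals, from the start of the long run in the fibrillar chains and around an early break in the type IV chains.
Col1a1, coding bases 502 to 591: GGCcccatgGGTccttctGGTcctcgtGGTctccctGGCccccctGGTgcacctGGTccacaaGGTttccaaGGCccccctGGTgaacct
Col1a2, coding bases 289 to 378: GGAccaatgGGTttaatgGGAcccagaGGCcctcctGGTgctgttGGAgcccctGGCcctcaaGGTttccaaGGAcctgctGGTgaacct
Col3a1, coding bases 490 to 579: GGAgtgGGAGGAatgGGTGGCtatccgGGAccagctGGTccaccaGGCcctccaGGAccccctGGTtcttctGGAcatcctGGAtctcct
Col4a1, coding bases 442 to 531: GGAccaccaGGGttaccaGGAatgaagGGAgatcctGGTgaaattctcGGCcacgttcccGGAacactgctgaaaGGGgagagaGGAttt
Col4a2, coding bases 469 to 558: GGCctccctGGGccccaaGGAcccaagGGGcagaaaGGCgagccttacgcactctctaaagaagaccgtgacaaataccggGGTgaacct
The other members had no run of 5 or more such groups. Words of 36 bases, the read length, were looked for only in the protein-coding transcripts of other genes. Despite the shared repeat, no word from the Col1a2, Col3a1, Col4a1, or Col4a2 transcripts occurred there, and 0.119% of those of Col1a1 did.

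The build of the files is mm9, the same assembly as NCBIM37. Col1a1 lies at chr11:94797584-94813170, Col1a2 at chr6:4455697-4491543, Col3a1 at chr1:45368383-45406551, Fn1 at chr1:71632097-71699745, Sparc at chr11:55208003-55233582, and Postn at chr3:54165029-54194963. Dcn (chr10:96942134-96980796) and Lum (chr10:97028135-97035337) are neighbours with 47338 bases between them. Col4a1 (chr8:11198423-11312826, minus strand) and Col4a2 (chr8:11312829-11449287, plus strand) face away from each other, with 2 bases between the starts listed in the files. Those bases stand in capitals in the plus strand of chr8:11312813-11312842.
Col4a1 and Col4a2 starts: ggcggcgtctccaaGGggaggaccctgcgg
Exons of Col4a1 and Col4a2 share bases in the GENCODE annotation, as do exons of Fn1 with Apol7d and of Col1a1 with Gm17329 on opposite strands. Exons of Col4a2 also share bases with Gm15419 on the opposite strand. Gm15419 is not annotated as protein-coding, so its transcripts were not among those searched for shared words. Whether counting used the strand is not given in the sources used here, so reads from such partners cannot be told apart. Of the 36-base words of the Fn1 transcript, 2.59% also occur in an Apol7d transcript.

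All levels are FPKM, which is divided by transcript length and by the mapped fragments of a library, so that levels of different genes can be set side by side. Depth relative to the E18 library was between 0.965 and 1.62, the absolute depth is unknown, and between 11152 and 12414 genes reached FPKM 1 per library. Nt5e, which encodes Cd73, stood at 97.3, 131, and 124 FPKM in Cd73PC at P2, P5, and P8 and at 2.43, 31.4, and 9.38 in Cd73NC, as the labels of all 3 sorts require. All 10 rod markers were higher in Cd73PC at each stage, against 8.56%, 7.02%, and 7.54% of all genes at P2, P5, and P8. Differences between libraries are given as log2 ratios of FPKM + 1, and a gene is counted as higher or lower when it is past 1.5-fold on that scale. Cufflinks, the program that made the estimates, gives each FPKM a lower and an upper bound, and these cover the estimate within 1 library only.

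The 10 genes spanned the full range of expression. Sparc was in the 93.8th to 99.3rd percentile of all genes in every library. Fn1, Col4a1, and Col4a2 were at or above FPKM 1 in all 8 libraries, with medians over the libraries of 19.1, 12.3, and 8.34. Col1a2 reached FPKM 1 in 3 libraries, Col1a1 in 2, and Postn in 1, while Col3a1, Dcn, and Lum reached it in none. Sparc, Fn1, and the type IV chains were thus at moderate to high levels, while Col1a1, Col3a1, Postn, Dcn, and Lum never exceeded 1.37 FPKM.

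**Figure D1:**
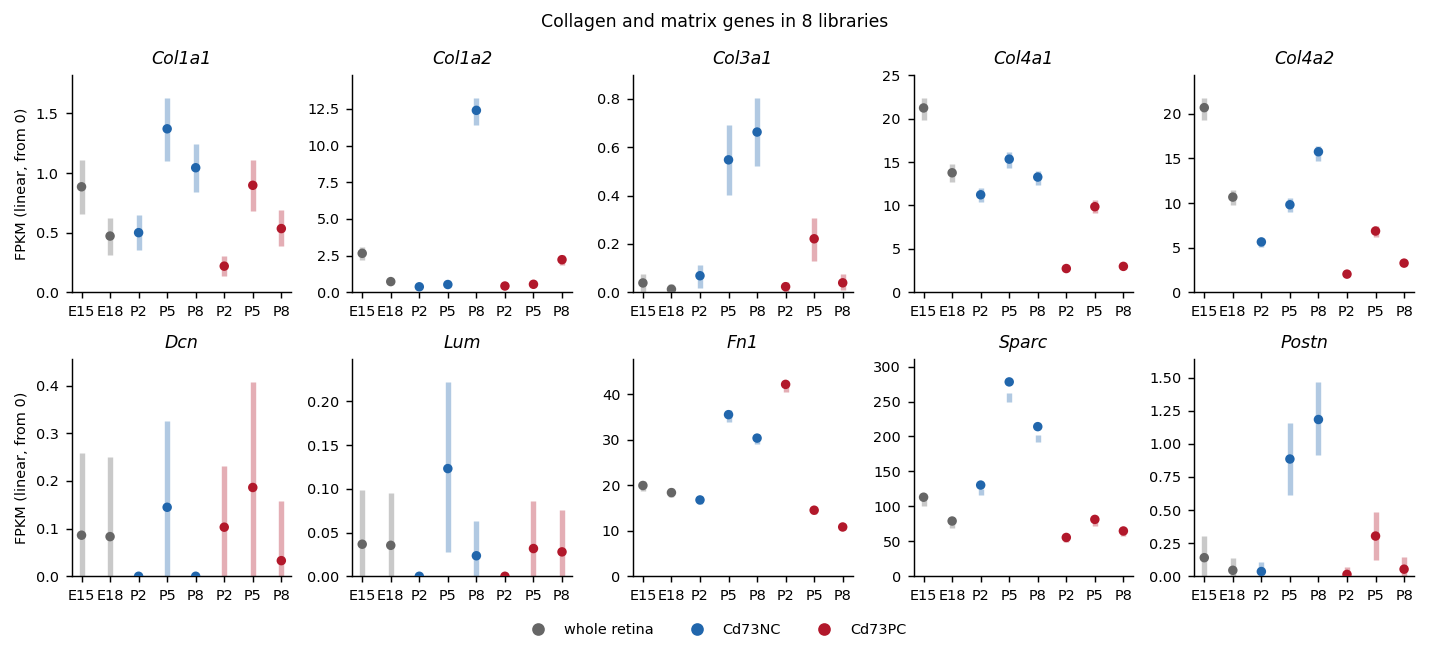
FPKM (linear axes from 0, scaled per gene) of the 10 genes in the 8 libraries; points are the deposited values and bars the Cufflinks bounds within 1 library. Sparc and Col4a1 points were higher in each Cd73NC library than in any Cd73PC library, as in 15.4% of all genes. The Col4a1 bounds of P2 Cd73NC and P5 Cd73PC overlap. Fn1 peaked at 42.1 in P2 Cd73PC, Col1a2 stood at 12.4 in P8 Cd73NC, and Sparc points lie above their own bounds.

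Sparc, a collagen-binding glycoprotein made by glia and many other cells, was the highest member in every library. In whole retina its level was 113 FPKM at E15 and 79.0 at E18. In Cd73NC it was 130.5, 278, and 214 FPKM at P2, P5, and P8, and in Cd73PC it was 55.5, 81.3, and 64.8. The lowest Cd73NC level was thus above the highest Cd73PC level, as in 15.4% of all genes. Relative to Cd73NC, Sparc in Cd73PC was lower by 2.35-fold at P2, by 3.42-fold at P5, and by 3.30-fold at P8 on FPKM as deposited (log2 of FPKM + 1 of -1.22, -1.76, and -1.71). In both fractions the P5 library was the highest, and the P5 level in Cd73NC was 2.13-fold the P2 level. The deposited Sparc FPKM lies above its own upper bound in all 8 libraries, by a margin smaller than these differences: at P5 in Cd73NC the bounds were 249 and 263. In a bulk fraction, fewer cells of a type and less RNA per cell cannot be told apart, and this applies to every level here.

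Col4a1 and Col4a2 encode the 2 chains of the common type IV collagen molecule. Col4a1 stood at 21.2 FPKM at E15 and 13.8 at E18, at 11.2, 15.3, and 13.3 in Cd73NC at P2, P5, and P8, and at 2.73, 9.86, and 2.98 in Cd73PC. Col4a2 stood at 20.7 and 10.7 FPKM in whole retina, at 5.64, 9.81, and 15.8 in Cd73NC, and at 2.03, 6.86, and 3.26 in Cd73PC. Both were highest in the E15 retina and lowest in P2 Cd73PC. For Col4a1 each Cd73NC value was above every Cd73PC value, as in 15.4% of all genes, but the bounds of P2 Cd73NC and P5 Cd73PC overlap. For Col4a2 the P5 Cd73PC library was above the P2 Cd73NC library.

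The gap between the fractions was much smaller at P5 than at the stages around it for both chains. Col4a1 in Cd73PC was 4.12-fold lower than in Cd73NC at P2, 1.56-fold lower at P5, and 4.46-fold lower at P8, and Col4a2 was 2.78-fold, 1.43-fold, and 4.83-fold lower, on FPKM as deposited. Within Cd73PC, Col4a1 was 3.61-fold higher at P5 than at P2 and 3.31-fold higher at P5 than at P8. Of all genes compared, 75 had a larger log2 ratio than Col4a1 between P2 and P5 in Cd73PC, and 84 had a smaller one between P5 and P8. The P5 difference between the fractions is at the edge of the 1.5-fold limit and was inside it when libraries were scaled to a common upper quartile or quantile-normalized. Of the 12 endothelial markers, 8 were higher at P5 than at P2 in Cd73PC and none lower, against 3.36% and 8.57% of all genes. At P8, 7 were lower than at P5 and none higher, against 4.78% and 3.31%. Kdr, the most abundant of them, stood at 29.7, 22.1, and 9.47 FPKM in Cd73PC and so was not highest at P5. Cdh5 stood at 2.41 FPKM at P5, against 0.0217 at P2 and 0.469 at P8, and Tie1 at 1.81, against 0.0892 and 0.554 (named after their values were seen). Between the fractions at P5, 1 marker was higher and 2 were lower in Cd73PC, near the shares of all genes (7.02% and 15.6%). The list's summed FPKM was 17.8 to 45.6 in Cd73PC and 92.4 to 172 in Cd73NC. Kdr, which neural progenitors also express, was the highest of these markers. From P2 to P5 in Cd73NC, 5 of the 12 endothelial markers were higher and 1 was lower, against 7.93% and 9.51% of all genes. In Cd73PC, 4 of 10 mural and 5 of 9 erythroid markers were also higher at P5 than at P2, and 0 were lower. From P5 to P8 there, 2 mural markers were lower and 4 erythroid markers were higher. The part of any of these cells in the Col4a1 and Col4a2 levels was not tested.

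The ratio of the 2 chains drifted with age. Col4a2 over Col4a1 was 0.974 at E15 and 0.775 at E18, then 0.502, 0.639, and 1.19 in Cd73NC and 0.743, 0.696, and 1.10 in Cd73PC at P2, P5, and P8. It was above 1 only in the P8 libraries of both fractions. Over the 8 libraries the log2 levels of the pair had a Pearson r of 0.92, given as a description of libraries that share their processing.

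Fn1 was the only member whose difference between the fractions changed sign with age by more than the 1.5-fold limit. Its levels were 19.9 FPKM at E15, 18.4 at E18, 16.8, 35.5, and 30.3 in Cd73NC at P2, P5, and P8, and 42.1, 14.5, and 10.8 in Cd73PC. P2 Cd73PC was thus the highest of all 8 libraries, with bounds of 40.4 and 42.7, and P8 Cd73PC the lowest. Fn1 in Cd73PC was 2.51-fold higher than in Cd73NC at P2, then 2.45-fold lower at P5 and 2.80-fold lower at P8. Between P2 and P5 it was 2.12-fold higher at the later stage in Cd73NC and 2.90-fold lower in Cd73PC. The sign was the same with libraries scaled to the upper quartile, quantile-normalized, or without a pseudocount.

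Of the genes of astrocytes, glia that migrate into the retina along the optic nerve, Gfap, Pax2, and S100b were on the same side of the sort as Fn1 at each stage. Gfap, the astrocyte filament protein, stood at 2.52 FPKM in P2 Cd73PC and 0.187 in P2 Cd73NC, then at 5.22 in Cd73NC and 2.36 in Cd73PC at P5. Pax2, a transcription factor of immature astrocytes, stood at 3.71 in P2 Cd73PC and 0.0925 in P2 Cd73NC, then at 3.32 in Cd73NC and 0.966 in Cd73PC at P5. Pdgfra, the receptor of astrocyte precursors and of mesenchyme, stood at 15.4 and 2.22, then at 19.6 and 3.91 in the same order. It was listed with the fibroblast and mesenchyme markers and not with the astrocyte markers. Of those 12 genes it alone was past the limit between the fractions at P2 and at P5. Of the 5 astrocyte markers, 3 were higher in Cd73PC at P2, against 8.56% of all genes. Lower there were 4 at P5 and all 5 at P8, against 15.6% and 18.6%. Aldh1l1 and Aqp4 (named after their values were seen) were within the limit at P2. Aqp4 then had the lower level in Cd73PC, at 0.0336 FPKM against 0.161 in Cd73NC, and so was not on the side of Fn1. Their summed FPKM was 0.839 in P2 Cd73NC and 10.6 in P2 Cd73PC, 14.7 in Cd73NC at both P5 and P8, and 5.27 and 4.39 in Cd73PC at those stages, and none of the 5 was at 0 in any library. At P2, all 10 microglia markers and 6 of 9 retinal pigment epithelium markers were also higher in Cd73PC, against 8.56% of all genes. Their sums were 59.6 and 80.4 FPKM in P2 Cd73PC, against 9.89 and 2.41 in P2 Cd73NC. Later, 4 (P5) and 1 (P8) of the microglia markers were lower in Cd73PC and 0 were higher. Of the pigment epithelium markers, 2 (P5) and 4 (P8) were still higher in Cd73PC and 0 were lower. Among all genes, 15.6% and 18.6% were lower at these stages, and 7.02% and 7.54% were higher. The part of any of these cells in the Fn1 levels was not tested.

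**Figure D2:**
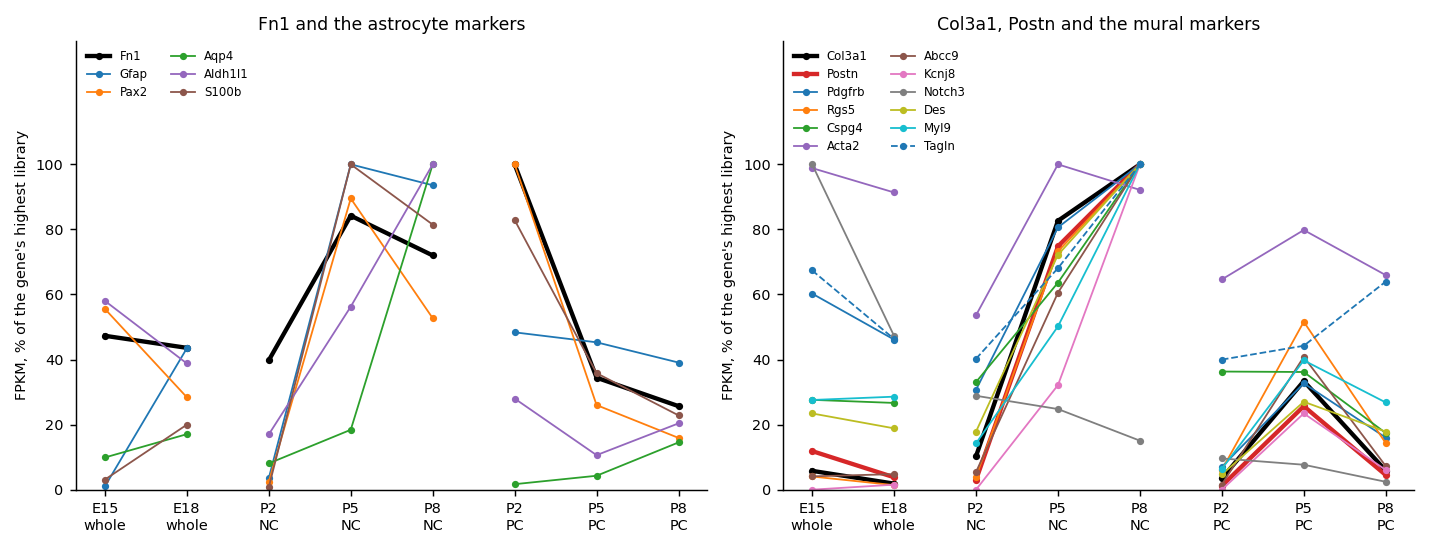
FPKM of each gene as a percentage of its highest library, for Fn1 (thick line) with 5 astrocyte markers on the left and for Col3a1 and Postn (thick lines) with 10 mural markers on the right; lines join stages within whole retina, Cd73NC, and Cd73PC. Fn1, Gfap, Pax2, and S100b were all higher in Cd73PC than in Cd73NC at P2 and lower at P5 and P8, and Col3a1 and Postn were highest in P8 Cd73NC.

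Col1a1 and Col1a2 encode the chains of type I collagen, which is built from both. Col1a1 was low throughout, at 0.885 FPKM at E15, 0.471 at E18, 0.50, 1.37, and 1.04 in Cd73NC, and 0.219, 0.897, and 0.534 in Cd73PC. Col1a2 was at 2.65 FPKM at E15 and 0.724 at E18, at 0.370, 0.525, and 12.4 in Cd73NC, and at 0.423, 0.540, and 2.22 in Cd73PC. The P8 Cd73NC library stands apart from all others for Col1a2 and not for Col1a1.

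Col1a2 in Cd73NC was 23.6-fold higher at P8 than at P5, with bounds of 11.4 and 13.3 against 0.370 and 0.672. On FPKM + 1, 56 of the genes compared had a larger log2 ratio. In Cd73PC the P8 level was 4.11-fold the P5 level, and at P8 it was 5.59-fold lower in Cd73PC than in Cd73NC. The ratio of Col1a2 to Col1a1 was therefore 11.9 in P8 Cd73NC and 4.15 in P8 Cd73PC, against 3.0 at E15 and 0.383 to 1.93 in the other 5 libraries. No 36-base word of the Col1a2 transcript was shared with a protein-coding transcript of another gene. Of the 15 other fibrillar and associated collagens, 1 (Col9a1) was higher at P8 than at P5 in Cd73NC and 4 were lower. Among all genes, 8.47% were higher and 7.78% lower. In Cd73NC, Col5a1, which joins type I fibrils (named after its values were seen), stood at 2.63 FPKM at P5 and 1.33 at P8, and Col3a1 at 0.548 and 0.663.

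**Figure D3:**
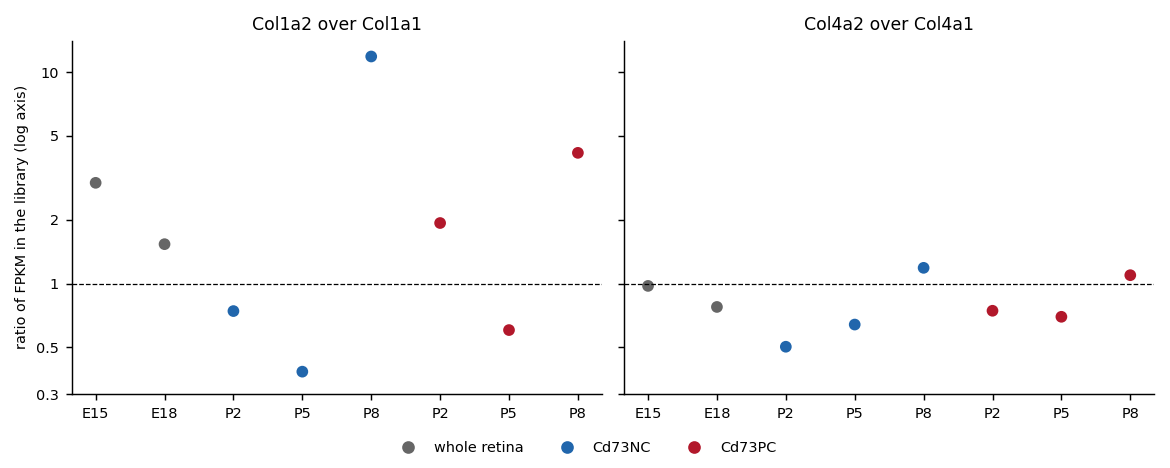
Ratio of FPKM within each library for the chains of type I (left) and type IV (right) collagen, on a log axis, with a dashed line at equal levels. Col1a2 over Col1a1 was 11.9 in P8 Cd73NC and between 0.383 and 4.15 elsewhere, while Col4a2 over Col4a1 was between 0.502 and 1.19.

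Col3a1, the chain of type III collagen, and Postn, which promotes the assembly of collagen fibrils, had nearly the same pattern at low levels. Col3a1 stood at 0.0384 and 0.0123 FPKM in whole retina, at 0.0682, 0.548, and 0.663 in Cd73NC, and at 0.0229, 0.221, and 0.0389 in Cd73PC. Postn stood at 0.141 and 0.0452 FPKM in whole retina, at 0.0357, 0.886, and 1.18 in Cd73NC, and at 0.0140, 0.304, and 0.0535 in Cd73PC. Both were highest in P8 Cd73NC, then in P5 Cd73NC, followed by P5 Cd73PC. Their log2 levels had a Pearson r of 0.99 over the 8 libraries, the highest of any pair of members.

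At P8 the deposited level in Cd73NC was 17.0-fold that in Cd73PC for Col3a1 and 22.1-fold for Postn. The lower bound of Postn in P8 Cd73PC was 0, so its ratio has no upper limit from the bounds. On FPKM + 1 the log2 ratios were -0.68 and -1.05, and the one of Col3a1 was inside the limit after quantile normalization. Between P2 and P5, Postn in Cd73NC was 24.8-fold and Col3a1 8.03-fold higher at the later stage on FPKM as deposited. The lower bound of Postn in P2 Cd73NC was 0, so that ratio has no upper limit either. On FPKM + 1 the differences were 1.82-fold for Postn and 1.45-fold for Col3a1, the latter inside the limit.

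Markers of pericytes and other mural cells of vessels, apart from Acta2 and Notch3, were also highest in P8 Cd73NC. Of the 10 mural markers, 8 were lower in Cd73PC than in Cd73NC at P8, against 18.6% of all genes. At both P2 and P5, 2 were lower, near the shares of all genes (14.4% and 15.6%). Rgs5, a signalling regulator used as a pericyte marker, stood at 0.585, 10.8, and 14.7 FPKM in Cd73NC and at 0.893, 7.60, and 2.11 in Cd73PC. Kcnj8, a potassium channel subunit of pericytes (named after its values were seen), was listed at 0 in both P2 libraries and stood at 2.17 in P8 Cd73NC. The summed FPKM of the list was 11.9, 31.9, and 40.3 in Cd73NC, 9.28, 20.9, and 11.6 in Cd73PC, and 27.0 and 18.4 in whole retina. Erythroid markers, whose sum was highest in P8 Cd73NC at 7007 FPKM, were 133 at P2 and 2009 at P5 in that fraction. In Cd73PC their sum was 40.2, 1363, and 2764.5 FPKM at P2, P5, and P8. It thus rose from P5 to P8 in Cd73PC, where the Col3a1 and Postn values were lower at P8, with overlapping bounds for Postn. Of the 9 erythroid markers, 2, 1, and 4 were lower in Cd73PC, against 14.4%, 15.6%, and 18.6% of all genes. None was higher, against 8.56%, 7.02%, and 7.54%. The part of mural or blood cells in the Col3a1, Postn, and Col1a2 levels was not tested.

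Since Col3a1 and Postn had such similar levels, the 250 bases before their RefSeq starts (GRCm38.p6) were read and searched on both strands for the TATA box, spelled TATAAA. They were searched in the same way for the CCAAT box by that name alone and, as another common promoter element, for the GC box of the general factor Sp1, spelled GGGCGG. No spelling holds another one. For Postn the window given is the one of its 2 RefSeq starts whose bases directly precede the start in the files, and the same holds for the Col3a1 window. Matches to TATAAA are in capitals.
Col3a1, chr1:45311288-45311537, plus strand: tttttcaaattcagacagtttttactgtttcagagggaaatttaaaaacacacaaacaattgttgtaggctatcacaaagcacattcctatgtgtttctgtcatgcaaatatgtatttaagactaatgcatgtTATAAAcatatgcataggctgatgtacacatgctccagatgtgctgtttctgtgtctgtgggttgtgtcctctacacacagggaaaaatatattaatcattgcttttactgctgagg
Postn, chr3:54360857-54361106, plus strand: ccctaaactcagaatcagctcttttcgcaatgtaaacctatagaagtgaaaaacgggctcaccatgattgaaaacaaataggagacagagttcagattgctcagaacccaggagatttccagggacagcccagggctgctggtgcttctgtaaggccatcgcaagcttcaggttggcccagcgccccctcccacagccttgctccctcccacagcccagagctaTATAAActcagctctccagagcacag
TATAAA began at position -117 from the start in Col3a1 and at -26 in Postn, and neither window held a CCAAT box or a GC box. Of 32851 RefSeq promoter windows of the same length, 12.4% held the TATA box, 33.8% the CCAAT box, and 32.7% the GC box. These matches are letters in a window and were not tested as sites. Of the members, 6 had an entry in the promoter table. The Col1a2 window held the CCAAT box once and the GC box in 2 places, and its bases do not directly precede the start in the files.

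Dcn and Lum, the leucine-rich proteoglycans that cover collagen fibrils in sclera, cornea, and skin, were at the limit of detection. Dcn was listed at 0 in the Cd73NC libraries of P2 and P8 and stood between 0.0328 and 0.186 FPKM in the other 6 libraries. Lum was listed at 0 in both P2 libraries and stood between 0.0234 and 0.123 in the other 6. The lower bound of Dcn was 0 in every library, and that of Lum was above 0 only in P5 Cd73NC, at 0.0278. No order of the libraries can be read from these values. Defining markers of fibroblasts were as low: Twist2 and Dpt (named after their values were seen) were listed at 0 in all 8 libraries, and of the 12 fibroblast and mesenchyme markers the summed FPKM ran from 3.06 to 32.7, with most of it from Pdgfra and Thy1, which other retinal cells express.

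Across the whole set, most members were lower in Cd73PC at P8, while at P2 and P5 most were within the 1.5-fold limit. At P2, 3 members (Col4a1, Col4a2, and Sparc) were lower in Cd73PC, where 14.4% of all genes were, and Fn1 was higher, where 8.56% were. At P5, 3 members (Col4a1, Fn1, and Sparc) were lower, against 15.6% of all genes, and none was higher, against 7.02%. At P8, 7 members were lower, against 18.6% of all genes, and none was higher, against 7.54%. The 3 that did not differ past the limit at P8 were Col1a1, Dcn, and Lum. The median log2 ratio of the 10 members was -0.05, -0.40, and -1.23 at the 3 stages in turn, while that of all genes was 0.00, 0.00, and -0.02, and that of genes reaching FPKM 1 was -0.13, -0.17, and -0.22. In 2 members, Col4a1 and Sparc, all 3 Cd73NC libraries were above all 3 Cd73PC libraries, as in 15.4% of all genes. The reverse held for none, against 8.53% of all genes.

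**Figure D4:**
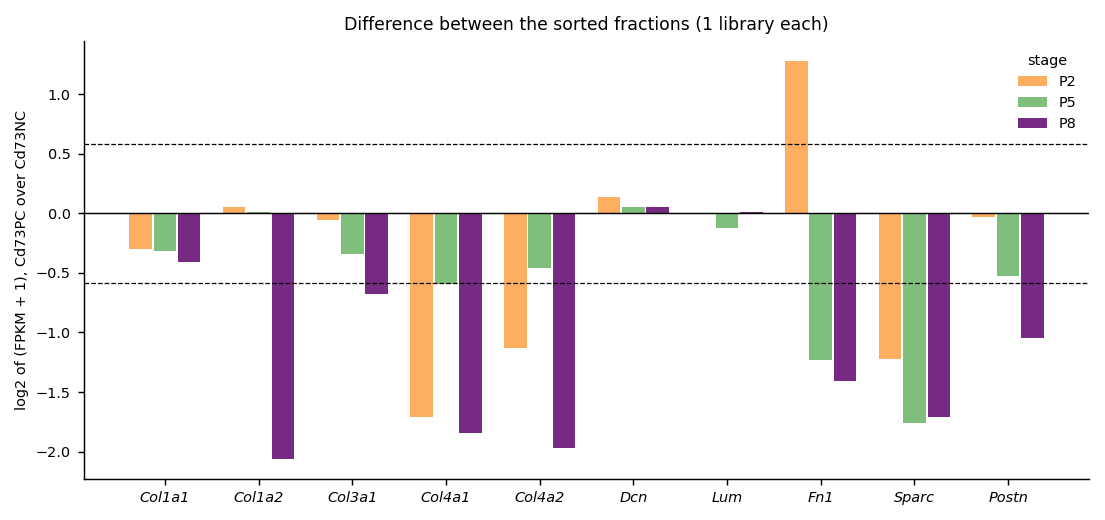
Log2 ratio of FPKM + 1 in Cd73PC over Cd73NC for each member at P2, P5, and P8, from 1 library per fraction and stage; dashed lines mark 1.5-fold. Fn1 is above 0 at P2 (1.28) and below at P5 (-1.23) and P8 (-1.41), and 7 members are past the lower line at P8.

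The other comparisons followed the members through time. From E15 to E18, Col1a2, Col4a1, and Col4a2 were lower at the later stage, by 3.66-fold, 1.54-fold, and 1.94-fold on FPKM as deposited. Lower genes made up 2.09% of all genes in that comparison and higher genes, with no member among them, 4.61%. Between E18 and P2 Cd73NC, which differ in age and in sorting, Sparc was 1.65-fold higher at P2, against 3.20% of all genes, and Col4a2 was 1.89-fold lower, against 8.20%. A single member on each side is near the background, and Sparc was inside the limit after quantile normalization.

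In Cd73NC from P2 to P5, 5 members were higher at P5, namely Col1a1, Col4a2, Fn1, Sparc, and Postn, against 7.93% of all genes, and none was lower, against 9.51%. The median log2 ratio of the 10 members was 0.60. Col1a1 was inside the limit after quantile normalization. From P5 to P8, Col1a2 and Col4a2 were higher at P8, against 8.47% of all genes, and none was lower, against 7.78%.

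In Cd73PC from P2 to P5, Col1a1, Col4a1, and Col4a2 were higher at P5, against 3.36% of all genes, and Fn1 was lower, against 8.57%. Sparc was 1.47-fold higher, and past the limit with both other scalings. From P5 to P8, Col1a2 was higher, against 3.31% of all genes, and Col4a1 and Col4a2 were lower, against 4.78%. These comparisons share libraries with one another and with the comparisons of the fractions.

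Scaling bears on these shares. Relative to the deposited values, the median gene reaching FPKM 1 in P8 Cd73PC was shifted by 0.13 on the log2 scale by upper-quartile scaling and by 0.19 by quantile normalization, and in P8 Cd73NC by -0.03 and -0.05. After quantile normalization 10.4% of genes were higher and 10.9% lower in Cd73PC at P5, and 12.2% and 12.6% at P8. It also gave 3.59% higher and 3.01% lower from E15 to E18, 4.48% and 5.55% between E18 and P2 Cd73NC, and 5.09% and 5.37% from P2 to P5 in Cd73PC, where upper-quartile scaling gave 4.76% and 6.41%. No member past the limit changed sign.

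Genes that build, modify, bind, and degrade matrix were taken from 7 lists written from general knowledge. Of all genes, 14.4%, 15.6%, and 18.6% were lower in Cd73PC at P2, P5, and P8, and 8.56%, 7.02%, and 7.54% were higher. The counts of these lists and of the Muller glia markers are to be read beside those shares. Of the 15 other fibrillar and associated collagens, 8, 8, and 9 were lower in Cd73PC at P2, P5, and P8, and 2, 2, and 1 were higher. Col2a1, the main collagen of vitreous and cartilage, stood at 70.7, 147, and 92.1 FPKM in Cd73NC and at 30.5, 27.5, and 13.9 in Cd73PC. Col9a1 and Col9a3, chains of the type IX collagen that decorates its fibrils, were lower in Cd73PC at all 3 stages, with log2 ratios of -1.78 to -2.77 and of -1.73 to -1.85. All 3 were above Col1a1 and Col3a1 in every library. Col5a3 was the exception with higher levels in Cd73PC at all 3 stages, at 0.703, 2.46, and 2.87 FPKM against 0.124, 0.313, and 0.388 (named after its values were seen).

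Of the 17 other basement membrane genes, 3, 8, and 7 were lower and 2, 1, and 0 higher in Cd73PC at P2, P5, and P8. The counts at P2 are near the shares of all genes. Agrn, which encodes agrin, a proteoglycan of basement membranes and synapses, stood at 32.9, 53.7, and 44.9 FPKM in Cd73NC and at 21.7, 17.6, and 14.0 in Cd73PC. Lamb2, a laminin chain, was lower in Cd73PC at all 3 stages, with log2 ratios of -1.54, -1.84, and -1.63. Col18a1, the source of endostatin, had a log2 ratio of 0.02 at P2 and of -1.36 and -1.34 later. Neither Agrn, Lamb2, nor Col18a1 had the small P5 difference of Col4a1 and Col4a2. In Cd73PC, however, Col15a1 and Lama4 were higher at P5 than at P2, while Col18a1 and Lama1 were lower. From P5 to P8, 6 genes of the list were lower there, Col15a1 among them, and 0 were higher. Col15a1 was also the 1 gene of the list higher in Cd73PC than in Cd73NC at P5. Col15a1, Lama4, and Lama1 were named after their values were seen.

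Of the 21 genes that fold, modify, and cross-link collagen, 6, 13, and 12 were lower in Cd73PC at P2, P5, and P8, and 2, 0, and 0 higher. Serpinh1, the collagen-specific chaperone Hsp47, stood at 111, 131, and 69.8 FPKM in Cd73NC and at 58.0, 31.8, and 11.4 in Cd73PC. Ppib and P4hb, which also serve the folding of other secreted proteins, were within the limit at all 3 stages. Of the 15 receptors for collagen and fibronectin, 7, 6, and 7 were lower and 1 was higher at each stage. Ddr1, a receptor kinase for collagen, was lower in Cd73PC with log2 ratios of -1.40, -2.10, and -2.25, and Itgb1, the shared beta chain of the collagen and fibronectin integrins, with -1.21, -1.88, and -1.47. The higher one was Sdc4, a heparan sulphate proteoglycan that binds fibronectin, with log2 ratios of 0.60, 0.60, and 1.15.

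Of the 14 proteases and inhibitors, 6, 9, and 9 were lower in Cd73PC, and 1 was higher, at P2. The higher gene was Mmp2, a gelatinase, at 16.1 FPKM against 9.44 (named after its values were seen). Mmp14, a membrane-bound collagenase, stood at 74.9, 85.3, and 33.8 FPKM in Cd73NC and at 25.7, 13.4, and 5.17 in Cd73PC. Timp2, an inhibitor of these enzymes, was within the limit at P2 and had log2 ratios of -1.73 and -1.95 later, and Serpine2, an inhibitor of serine proteases, was lower at all 3 stages with -1.52, -1.45, and -0.86.

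Of the 9 other small leucine-rich proteoglycans, 1, 1, and 3 were lower and 1, 0, and 0 higher. The counts at P2 and P5 are near the shares of all genes. Prelp was the abundant one, at 19.6, 31.5, and 23.8 FPKM in Cd73NC and at 6.44, 4.76, and 3.42 in Cd73PC, in contrast to Dcn and Lum. Bgn, which encodes biglycan, reached 4.77 in P8 Cd73NC and had a log2 ratio of -1.41 at that stage, and Ogn, the higher gene at P2, stayed below FPKM 1 in every library.

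The 23 other matricellular and adhesive glycoproteins were split between the fractions at P2, where 9 were higher in Cd73PC and 5 lower. Later 2 were higher and 7 lower (P5), and 3 were higher and 11 lower (P8). Mfap4, a microfibril-associated protein, changed sides with Fn1, standing at 43.8 FPKM in Cd73PC and 19.1 in Cd73NC at P2, then at 13.4 and 46.9 at P5 and 1.91 and 8.30 at P8. Vtn, which encodes vitronectin, was higher in Cd73PC at all 3 stages, at 7.36, 25.8, and 51.5 FPKM against 1.93, 6.80, and 8.36. Smoc1, a relative of Sparc, was lower in Cd73PC at all 3 stages, with log2 ratios of -1.94, -2.03, and -1.70. 

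Markers of Muller glia, the main glia of the retina, were mostly higher in Cd73NC at every stage. Of the 9 markers, 7, 8, and 9 were lower in Cd73PC at P2, P5, and P8, with summed FPKM of 367 to 611 in Cd73PC and 1387 to 1928 in Cd73NC, and none of the 9 was at 0 in a Cd73NC library. Their part in the lower levels of Sparc, Col2a1, and the other matrix genes in Cd73PC was not tested. Lens and skeletal muscle markers, which would mark carried-over tissue, had summed FPKM of 2.20 to 15.9 and 10.2 to 19.8, the latter mostly from Acta1.

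The genes whose levels were most like those of 5 members were found by Pearson r of log2(FPKM + 1) over the 8 libraries, among 10859 genes that reached FPKM 5 in a library. The points share their libraries and with them depth and composition, so r is a description. For Sparc they were Nbl1, Rnf182, Elac2, 2310003C23Rik, and Lynx1, with r of 0.963 to 0.984. Nbl1, a secreted antagonist of bone morphogenetic proteins, stood at 6.76 FPKM in P5 Cd73NC and 1.64 in P5 Cd73PC. For Fn1 they were 4931406C07Rik, A230046K03Rik, Cxx1c, Zzz3, and Fbln2, with r of 0.942 to 0.971. Fbln2, which encodes fibulin 2, a matrix protein that binds fibronectin, stood at 10.8 FPKM in Cd73PC and 4.13 in Cd73NC at P2, then at 2.67 and 7.65 at P5.

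For Col4a1 the list was Esrra, Eif2b5, Snx11, Aldh18a1, and Col4a2, with r of 0.924 to 0.949. Aldh18a1 makes a precursor of proline, an amino acid abundant in collagen, and stood at 27.2 FPKM at E15 and 11.8 in P2 Cd73PC. For Col1a1 the list was Ifitm3, Prdm2, Car14, Hsd11b2, and Wipf2, with r of 0.892 to 0.929. For Lum it was Slc38a10, Prdm2, Acaa2, Bc1, and Supt5h, with r of 0.858 to 0.932, from levels at the limit of detection and with the P5 Cd73NC library far from the others. These lists depended on scaling: after quantile normalization, 0 of the 5 genes stayed for Col1a1, 2 for Col4a1, 1 for Fn1, 2 for Sparc, and 3 for Lum.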

How the data were processed

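RNA from 8 samples was analysed with 1 library for each condition. The authors selected poly(A) RNA, made the libraries with an Illumina kit using random primers, sequenced single-end reads of 36 bases, mapped them to mm9 with TopHat2 2.0.8b, and estimated expression with Cufflinks 2.1.1 (CASAVA 1.8.2 and bcl2fastq 1.8.4 are also named in the submitters' processing notes). They deposited the FPKM of 23021 rows per library with a status and a pair of confidence bounds. Dividing by transcript length and mapped fragments makes FPKM relative to the other RNA in a library. Counts are not used here.

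From these values 796 rows of small RNAs were left out, repeated rows of 234 symbols were added up, and 4 to 10 failed rows per library were taken as missing. In 1428 to 2170 rows per library the FPKM lies outside its own bounds. Starts, which the files count from 0, were raised by 1. Relative depth came from the step between the lowest values. Without replicates no test, SD, or p-value was computed, and genes past 1.5-fold on FPKM + 1 were counted. Sorted retinas were pooled before sorting.

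The members and gene lists were chosen with earlier results of these data known. Besides the members and Nt5e, the genes named are those with the 3 highest mean FPKM of each list and the 5 most like Col1a1, Col4a1, Fn1, Sparc, and Lum. Others are marked where they appear. The lists were 7 of matrix genes and markers of endothelial, mural, fibroblast and mesenchyme, astrocyte, Muller glia, lens, retinal pigment epithelium, microglia, erythroid, skeletal muscle, and rod cells. Alternatives were a pseudocount of 0.1 or 0, a threshold of 2-fold, upper-quartile scaling, quantile normalization, only genes reaching FPKM 1, and bounds that do not overlap. Python 3.11.15, numpy 2.4.6, pandas 2.3.3, and matplotlib 3.10.9 were used, and the counting was tested on simulated data.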

Additional observations from a re-analysis of the deposited data

Results flagged for a closer look

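The difference between Cd73PC and Cd73NC changed direction between P2 and the later stages in Fn1 and in 8 other genes named for their list or likeness, each past 1.5-fold in both directions at P2 and at P5 or P8. As 1 library stands for each fraction and stage, this change was not tested. Only the named genes were looked at in this way, and the share of all genes with such a change was not counted. Whether the 8 genes are more than that share is therefore not known. The log2 ratios of FPKM + 1 at P2, P5, and P8 were 1.28, -1.23, and -1.41 in Fn1. Among the matrix genes they were 1.16, -1.73, and -1.68 in Mfap4 and 1.21, -1.24, and -1.60 in Fbln2. Among markers of astrocytes and mesenchyme they were 1.57, -0.89, and -0.95 in Gfap, 2.20, -1.08, and -1.21 in S100b, 2.11, -1.14, and -0.89 in Pax2, and 2.34, -2.07, and -1.31 in Pdgfra. The other 2 genes were Cxx1c with 1.23, -1.15, and -1.79 and 4931406C07Rik with 0.72, -0.54, and -0.72. The genes 4931406C07Rik, Cxx1c, and Fbln2 were named because their levels are like those of Fn1, so their pattern adds nothing independent to it.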

How the results depend on the processing

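No paired analysis was possible because each group holds 1 library, and for the same reason none could be left out in turn. Of the counts and values tried, 43 main and 15 single-gene values moved by more than 1.5-fold, 122 and 102 did not, and none past the limit changed sign. A pseudocount below 1 lets genes under FPKM 1 pass the limit, members and others alike, so the share of all genes on the same side is given in parentheses. With 0.1, members higher and lower in Cd73PC numbered 2 (13.6%) and 4 (20.7%) at P2 and 0 (10.6%) and 6 (23.4%) at P5. With it 5 were lower at E18 than at E15 (6.06%), 3 lower in P2 Cd73NC than at E18 (16.6%), 8 higher from P2 to P5 (14.2%) and 2 lower from P5 to P8 (12.3%) in Cd73NC, and 5 higher (6.78%) and then 6 lower (10.9%) in Cd73PC. With 0, the numbers were 2 (18.4%) and 6 (24.4%) at P2, 7 lower at P5 (28.0%), 1 higher at P8 (12.5%), 6 lower at E18 (9.40%), 2 higher (8.73%) and 4 lower (21.1%) in P2 Cd73NC than at E18, 8 higher (18.4%) then 2 lower (15.5%) in Cd73NC, and 7 higher (9.86%) then 6 lower (15.4%) in Cd73PC. At 2-fold, 1 member was lower at E18 (0.573%), 0 were higher (0.642%) or lower (2.84%) in P2 Cd73NC than at E18, 2 were higher at P5 (3.23%) and 1 at P8 (4.25%) in Cd73NC, and 1 was lower at P8 in Cd73PC (1.29%). Matrix partner genes higher in Cd73PC were then 10, 2, and 3 at P2, P5, and P8 (18, 6, and 5 at 1.5-fold), and 23 were lower at P2 (36 at 1.5-fold). Of all genes, 4.41%, 3.14%, and 4.07% were higher past 2-fold at P2, P5, and P8, and 7.15% were lower at P2. After quantile normalization, 0 members were higher in P2 Cd73NC than at E18 (4.48%). The partner genes on the Cd73PC side then came to 10 at P5 (10.4% of all genes) and 9 at P8 (12.2%). Of the 5 genes most like each member, that setting kept 0 for Col1a1, 2 for Col4a1, 1 for Fn1, 2 for Sparc, and 3 for Lum. Upper-quartile scaling kept 2 for Col1a1 and 3 each for Col4a1, Sparc, and Lum, and for Col1a1 a pseudocount of 0.1 kept 3 and of 0 kept 1. For Lum, listed at 0 in 2 libraries, a pseudocount of 0 gave no value. Levels under FPKM 0.1 rest on few reads, and the absolute depth is unknown.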
